A study of Mus musculus with 24 samples.

Results

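The genes described here encode the subunits of the proteasome, together with the assembly chaperones that carry subunit names, in mouse liver. They were taken by name: every protein-coding gene of the deposited expression table whose mouse symbol starts with Psma, Psmb, Psmc or Psmd followed by a digit, except Psmb8 and Psmb9. This gave 38 of the 18171 genes in the table, by a rule that reads symbols and uses no measured value. The livers came from C57BL/6 mice of 2 genotypes, L2d13 and wild type (WT), each with 12 libraries of total RNA. L2d13 livers overexpress L2 delta13, a name used elsewhere for Loxl2, a lysyl oxidase of the extracellular matrix, spliced without exon 13. The labels do not spell L2 out, and they give no promoter, vector or cell type for the overexpression. The digit 2 or 4 in the sample names divides each genotype into 6 libraries of set 2 (replicates 1 to 6) and 6 of set 4 (replicates 7 to 12). The labels used here do not say what that digit stands for. Age, sex and treatment are not given in them, nor whether the libraries of a group came from separate animals, so the p-values reflect spread among libraries that may be only technical.

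The proteasome is the barrel-shaped protease that degrades ubiquitin-tagged proteins. Its core particle, the 20S, is built from rings of alpha subunits, which form the gate, and rings of beta subunits, of which Psmb5, Psmb6 and Psmb7 carry the active sites. A regulatory particle, the 19S, caps the core. Its base unfolds substrates with a ring of ATPases (Psmc), and its lid removes the ubiquitin chain. Cells that need more proteasome raise the subunit genes together, and in immune responses the inducible catalytic subunits Psmb8, Psmb9 and Psmb10 replace the constitutive ones. The liver depends on this system for the turnover of short-lived enzymes and misfolded proteins.

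Expression was given as FPKM (fragments per transcript length and per mapped fragments), which is scaled per length, so levels of different genes can be set side by side. Sequencing depth is not in the table and is unknown. The FPKM sum of a library ranged from 550260 to 722980. In the 6 libraries named next, 1 fragment was worth more FPKM than in the other 18, by a relative value of 1.04 to 1.29 against 0.963 to 1.02. The 6 comprise replicate 3 of the L2d13 livers and replicates 6 and 9 to 12 of the WT livers, which leaves 11 L2d13 and 7 WT libraries, with only 2 of these in set 4 WT. The limit between them was set after seeing the data, and results are given with and without them where that matters. Loxl2 had a median FPKM of 1.61 in L2d13 livers and 0.625 in WT livers. Gm21451, an annotated copy of Loxl2, ranged from 40.6 to 266.2 FPKM in L2d13 livers and from 0.03 to 1.27 FPKM in WT livers. Albumin (Alb), the defining hepatocyte gene, was between 11019 and 31977 FPKM in L2d13 livers and between 24129 and 39137 FPKM in WT livers.

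Nearly all subunits were expressed at a median above 5 FPKM in both genotypes. Of the 38 genes, 35 reached an FPKM of 1 in at least 6 libraries and were tested. Psma8, the alpha subunit of male germ cells, stayed between 0.13 and 0.39 FPKM in L2d13 livers and between 0.10 and 0.74 FPKM in WT livers. Psmb11, the beta subunit of the thymic cortex, stayed between 0.06 and 0.92 FPKM in L2d13 livers and between 0.08 and 1.14 FPKM in WT livers. Psmc3ip meets the naming rule but encodes a meiotic recombination factor, and it stayed between 0.06 and 0.53 FPKM in L2d13 livers and between 0.06 and 0.47 FPKM in WT livers. No difference was tested for these 3 genes.

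**Figure D1:**
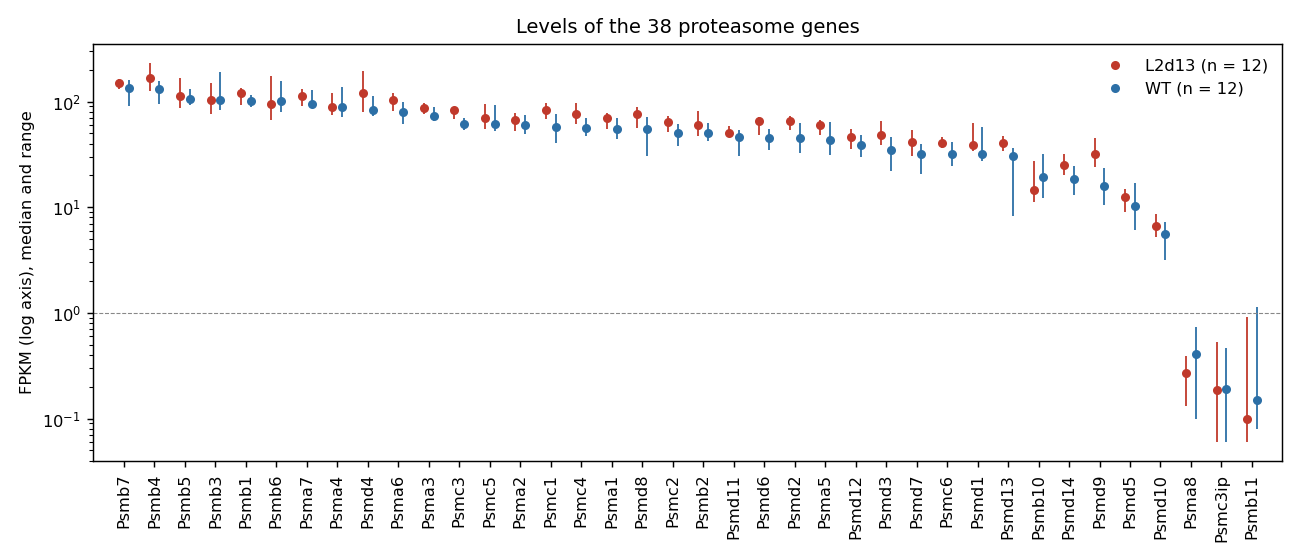
Median FPKM (point) and range over 12 libraries (line) of all 38 genes in L2d13 and WT livers on a log axis, with genes ordered by their WT median and a dashed line at an FPKM of 1. The core beta subunits Psmb7 and Psmb4 lead, the chaperones Psmd9, Psmd5 and Psmd10 lie low among the tested genes, and the 3 genes not tested lie below the line.

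Genes of the beta ring led the order in both genotypes. Psmb2 of that ring lay lower, with a median of 60.2 FPKM in L2d13 livers and 49.9 FPKM in WT livers. In L2d13 livers the order began with Psmb4 (median 166.6 FPKM), Psmb7 (150.0 FPKM) and the base subunit Psmd4 (120.3 FPKM). In WT livers it began with Psmb7 (135.0 FPKM) and Psmb4 (130.3 FPKM), whose ranges of 91.2 to 160.8 and 94.8 to 158.1 FPKM overlapped almost wholly, so that their order within WT is not resolved. The next 4 genes in WT, Psmb5, Psmb3, Psmb1 and Psmb6, had medians between 101 and 107 FPKM and did not differ beyond their spread either. Medians of the alpha subunits ran from 60.6 FPKM (Psma5) to 114.0 FPKM (Psma7) in L2d13 livers and from 43.5 to 94.9 FPKM for the same genes in WT livers. The ATPases lay lower, from 40.9 FPKM (Psmc6) to 83.3 FPKM (Psmc3) in L2d13 livers and from 32.0 to 61.8 FPKM for the same genes in WT livers. The lid ran from 25.4 FPKM (Psmd14) to 75.5 FPKM (Psmd8) in L2d13 livers, against 18.6 and 54.5 FPKM for these genes in WT livers. The lowest of the tested genes was the chaperone Psmd10, at 6.69 FPKM in L2d13 livers and 5.61 FPKM in WT livers.

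Most subunit genes were higher in L2d13 livers than in WT livers, and the rises were small. With a limma fit over both sets, with set as a term, 27 of the 35 tested genes rose, 1 (Psmb10) fell and 7 did not pass an adjusted p of 0.05. Of all 10532 genes tested, 25.9% rose and 4.86% fell, so much of the table was also called higher. The median log2 difference of the 35 genes was 0.29, beside 0.12 for all genes tested, and 32 of the 35 were above 0. The shift of all genes depends on the scaling: with libraries scaled by median-of-ratios factors it was close to 0, 1221 of 10521 genes (11.6%) rose and 1159 fell, and the proteasome genes had 16 rises and a median of 0.15. Without the 6 libraries, 21 of the 35 genes rose and none fell by the same test, with medians of 0.23 for the proteasome genes and 0.06 for all genes, against background shares of 14.9% and 4.76%.

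**Figure D2:**
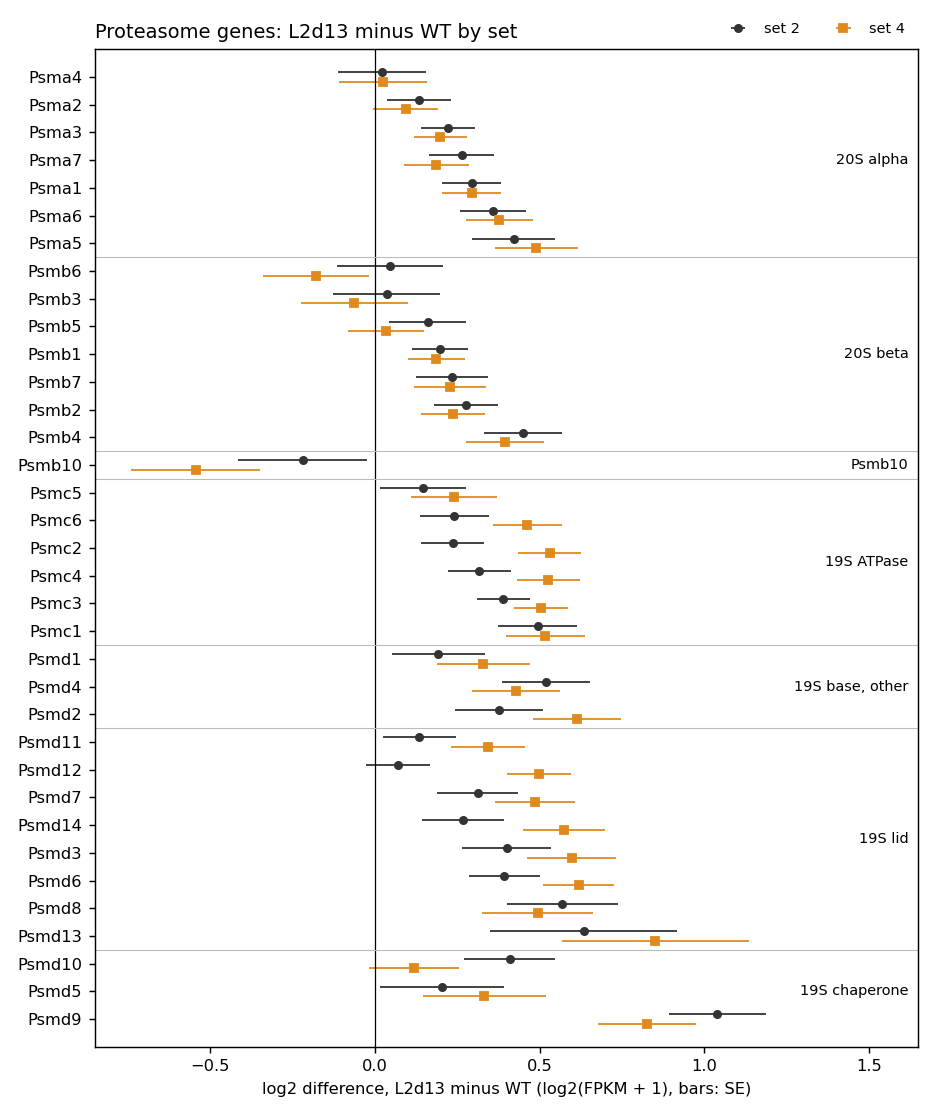
Log2 difference L2d13 minus WT (point) with its SE (bar) of the 35 tested genes, grouped by their place in the proteasome, for set 2 (circles) and set 4 (squares). Psmd9 and Psmd13 lie farthest above 0, and Psmb10 lies below 0 in each set. The median of base and lid is 0.32 against 0.23 for the core in set 2. In set 4 these medians are 0.50 and 0.19, and the genes of the 2 particles overlap in each set.

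In the lid of the regulatory particle all 8 genes were called higher over both sets, beside 25.9% of all genes, with a median log2 difference of 0.46. Of the 8, 3 passed in set 2 and 7 in set 4. Psmd11 and Psmd12 lost the call under median-of-ratios scaling and without the 6 libraries, and with both changes 2 of the 8, Psmd3 and Psmd6, passed, beside 9.67% of all genes. The base followed, with 5 of 6 ATPases higher (median 0.40) and 3 of 3 other base subunits higher (median 0.47). These are Psmd1 (0.26 ± 0.10, SE), a scaffold, Psmd2 (0.49 ± 0.10), the docking platform for shuttle factors, and Psmd4 (0.47 ± 0.09), a ubiquitin receptor. Psmc3 had the smallest SE of the ATPases called, with a log2 difference of 0.45 ± 0.06 (adjusted p = 7.22e-06), and Psmc1 rose by 0.51 ± 0.08. Psmc5 had a difference of 0.19 ± 0.09 with an adjusted p of 0.110, and it passed the test only when set 2 WT replicate 6 was left out (0.24). Psmd14, the enzyme that cuts the ubiquitin chain from the substrate, rose by 0.42 ± 0.09 (adjusted p = 0.00127).

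Psmd13, a structural subunit of the lid (chromosome 7, 140882394 to 140898642, GRCm38), had 39.3, 41.3 and 46.8 FPKM in set 2 L2d13 livers as the lowest, median and highest value, against 8.32, 32.5 and 36.6 FPKM in set 2 WT livers. Its set 4 values were 34.4, 37.8 and 45.6 FPKM in L2d13 livers, against 9.48, 20.8 and 36.2 FPKM in WT livers. The L2d13 libraries lay close together, whereas 5 WT libraries, set 2 replicate 6 and set 4 replicates 9 to 12, fell far below the other WT libraries, and all 5 are among the 6 with more FPKM per fragment. The groups did not overlap in set 2 and overlapped in set 4. The log2 difference over both sets was 0.74 ± 0.20 (SE, adjusted p = 0.00638), a fold of 1.67. Without the 6 libraries it was 0.25 ± 0.07 (adjusted p = 0.0220), so that most of its size rests on them.

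Psmd8, a lid subunit whose yeast counterpart joins late in lid assembly (chromosome 7, 29174187 to 29180673), showed the same arrangement of libraries. Its lowest, median and highest values were 75.7, 82.8 and 89.7 FPKM in set 2 L2d13 livers, against 30.7, 61.2 and 71.5 FPKM in set 2 WT livers. In set 4 they were 56.4, 62.8 and 75.4 FPKM in L2d13 livers, against 32.8, 43.8 and 61.7 FPKM in WT livers. All set 2 L2d13 libraries were above all set 2 WT libraries, while in set 4 the WT replicates 7 and 8 reached into the L2d13 range. Over both sets the log2 difference was 0.53 ± 0.12 (SE, adjusted p = 0.00148), and without the 6 libraries 0.28 ± 0.08 (adjusted p = 0.0267).

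Psmd6, a structural subunit of the lid (chromosome 14, 14112185 to 14120945), depended less on these libraries. It had 48.1, 63.4 and 71.1 FPKM in set 2 L2d13 livers, against 40.7, 47.6 and 54.5 FPKM in set 2 WT livers. The corresponding values in set 4 were 56.1, 66.5 and 68.6 FPKM in L2d13 livers, against 34.7, 41.5 and 50.7 FPKM in WT livers. In set 4 every L2d13 library was above every WT library, and in set 2 L2d13 replicate 3 alone lay below some WT libraries. The log2 difference was 0.51 ± 0.08 (SE, adjusted p = 5.6e-05), a fold of 1.42, and without the 6 libraries it was 0.41 ± 0.07 (adjusted p = 0.000378).

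**Figure D3:**
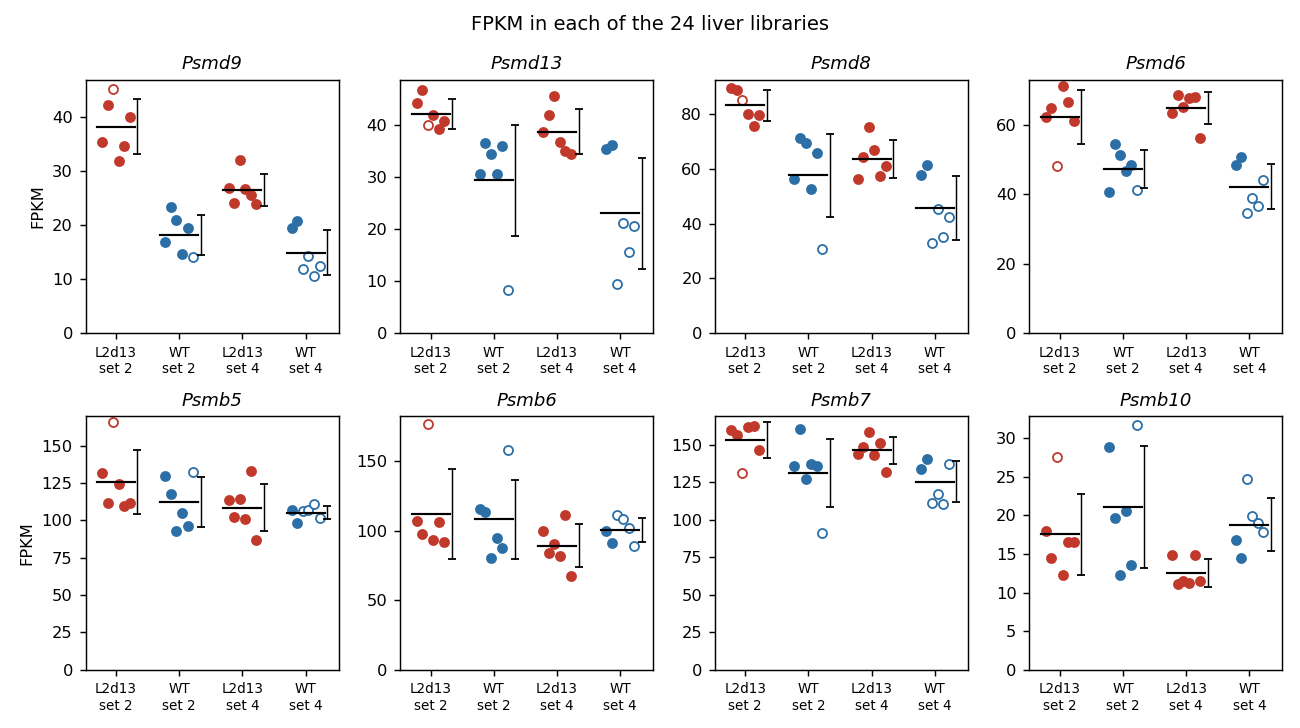
FPKM in each of the 24 libraries for Psmd9, Psmd13, Psmd8, Psmd6, Psmb5, Psmb6, Psmb7 and Psmb10, with the mean (line) and SD (bar) of each group of 6 and open symbols for the 6 libraries with more FPKM per fragment. Psmd9 is higher in every L2d13 library, the open WT symbols lie lowest for Psmd13 and Psmd8, and Psmb5 and Psmb6 overlap between the genotypes.

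The largest difference among the 35 genes was that of Psmd9, a chaperone that binds ATPases during assembly of the base and leaves before the particle is complete. Psmd9 had 31.8, 37.6 and 45.2 FPKM in set 2 L2d13 livers, against 14.0, 18.1 and 23.4 FPKM in set 2 WT livers. In set 4 it had 23.9, 26.1 and 31.9 FPKM in L2d13 livers, against 10.6, 13.3 and 20.7 FPKM in WT livers. The lowest of the 12 L2d13 libraries, at 23.9 FPKM, was above the highest of the 12 WT libraries, at 23.4 FPKM. It was the only one of the 35 genes without overlap between the genotypes over both sets, a state that 0.617% of all genes tested showed with L2d13 higher. The log2 difference was 0.93 ± 0.10 (SE, adjusted p = 1.32e-06), a fold of 1.91, and larger than that of 99.5% of genes tested. It was 0.72 ± 0.11 (adjusted p = 0.000196) without the 6 libraries and 0.64 (adjusted p = 0.000161) with median-of-ratios scaling as well. The other chaperones of this kind moved less, with Psmd10, also known as gankyrin, at 0.26 ± 0.10 (adjusted p = 0.0469) and Psmd5 at 0.27 ± 0.13 (adjusted p = 0.120). Psmd5 came to -0.01 without the 6 libraries.

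Promoter sequence was looked up because proteasome genes are known targets of the factor Nfe2l1 (NRF1), which binds antioxidant response elements. The RefSeq promoter table (GRCm38.p6, 250 bases before to 50 after each start) held 31 of the 38 genes, of which 29 were tested for expression. The element's core, TGACNNNGC on either strand, was present in 5 of the 29, or 17.2%, against 17.1% of the 8500 promoters of genes tested and 14.0% of all 27025 promoters in the table. The 5 were Psmd9, Psmd12, Psmc6, Psmb5 and Psmb6. They include the gene with the largest difference and 2 catalytic core genes that did not pass the test, so they are shown to set equal letters beside unequal differences. Of these, 4 have a stretch outside annotated transcripts, printed 5′ to 3′ in the gene's direction with the match in capitals. For Psmd12 and Psmc6 the core reads on the opposite strand, so the capitals are its reverse complement.
Psmd9 (chr5:123228129-123228189, plus strand): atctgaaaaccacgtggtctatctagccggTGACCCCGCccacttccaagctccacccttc
Psmd12 (chr11:107479278-107479319, plus strand): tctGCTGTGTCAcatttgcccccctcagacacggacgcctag
Psmc6 (chr14:45329574-45329635, plus strand): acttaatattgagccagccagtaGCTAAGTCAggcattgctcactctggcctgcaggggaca
Psmb5 (chr14:54618023-54618072, minus strand): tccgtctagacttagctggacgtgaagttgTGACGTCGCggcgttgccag
The log2 differences of these 4 genes were 0.93 for Psmd9, 0.29 for Psmd12, 0.35 for Psmc6 and 0.10 for Psmb5, and the first 3 passed the test. The ETS core CCGGAAG, searched on both strands, was present in 34.5% of the 29 promoters, against 21.3% of those of genes tested and 9.93% of all in the table. CCAAT, the box bound by NF-Y, was in 37.9%, against 43.0% of genes tested and 41.1% of the table. CGCATGCG was in 3.45%, against 4.52% of genes tested and 2.07% of the table. TGACGTCA, the cyclic AMP response element, was in 0 of the 29, against 3.61% of genes tested and 2.03% of the table. A match is a description of letters, not a site or a cause.

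In the core particle fewer genes passed the test. Among the alpha subunits, 5 of 7 rose over both sets with a median of 0.22, led by Psma5 (0.46 ± 0.09, SE) and Psma6 (0.37 ± 0.07). Psma2 (0.11 ± 0.07) and Psma4 (0.02 ± 0.09) did not pass. By the spans of the genes, Psma4 overlaps another annotated gene, as do Psmd1 and Psmd10. Whether their exons overlap was not examined, and the table does not state whether strand was used. How far reads of such pairs are shared is therefore not known. Psma3, Psma6, Psmb5, Psmb7, Psmc5 and Psmd13 overlap annotated noncoding genes or pseudogenes that have no row of their own in the table, with the same limit. Among the 7 constitutive beta subunits, 4 rose, namely Psmb4 (0.42 ± 0.08), Psmb2 (0.26 ± 0.07), Psmb7 (0.23 ± 0.08) and Psmb1 (0.19 ± 0.06), and the median was 0.19. Psmb3 had a difference of -0.01 ± 0.11.

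Of the 3 constitutive catalytic subunits 1, Psmb7, was called higher. Psmb5, which cuts after hydrophobic residues (chromosome 14, 54614120 to 54617995), had 109.5, 118.2 and 165.6 FPKM in set 2 L2d13 livers, against 93.0, 111.3 and 132.5 FPKM in set 2 WT livers. Its set 4 values were 86.8, 107.9 and 132.7 FPKM in L2d13 livers, against 98.2, 106.6 and 111.1 FPKM in WT livers. The genotypes overlapped throughout, with a log2 difference of 0.10 ± 0.08 (SE, adjusted p = 0.393).

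Psmb6, which cuts after acidic residues (chromosome 11, 70525324 to 70527858), had 91.4, 101.9 and 176.5 FPKM in set 2 L2d13 livers, against 80.2, 103.9 and 158.2 FPKM in set 2 WT livers. The corresponding values in set 4 were 67.5, 87.1 and 111.5 FPKM in L2d13 livers, against 89.2, 100.9 and 110.9 FPKM in WT livers. Both of the highest values, set 2 L2d13 replicate 3 and set 2 WT replicate 6, belong to the 6 libraries with more FPKM per fragment. The log2 difference was -0.07 ± 0.11 (SE, adjusted p = 0.694).

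Psmb7, which cuts after basic residues (chromosome 2, 38588046 to 38643952), had 131.4, 158.2 and 162.4 FPKM in set 2 L2d13 livers, against 91.2, 136.0 and 160.8 FPKM in set 2 WT livers. In set 4 it had 132.0, 146.3 and 158.4 FPKM in L2d13 livers, against 110.8, 125.8 and 140.6 FPKM in WT livers. The groups overlapped in each set. The log2 difference was 0.23 ± 0.08 (SE, adjusted p = 0.0229), and 0.14 (adjusted p = 0.108) without the 6 libraries.

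Psmb10, the inducible subunit that replaces Psmb7 in the immunoproteasome, was the 1 gene called lower. It lies on chromosome 8 from 105935728 to 105938392. Its values were 12.3, 16.5 and 27.6 FPKM in set 2 L2d13 livers, against 12.3, 20.1 and 31.8 FPKM in set 2 WT livers. In set 4 they were 11.2, 11.5 and 14.9 FPKM in L2d13 livers, against 14.5, 18.4 and 24.7 FPKM in WT livers. The groups overlapped in both sets, and 1 of the 12 L2d13 libraries, set 2 replicate 3, was above the WT mean of its set. The log2 difference was -0.38 ± 0.14 (SE, adjusted p = 0.0402), a fold of 0.768, and without the 6 libraries it was -0.25 (adjusted p = 0.193). The ratio of Psmb10 to Psmb7 had a median of 0.0955 in L2d13 livers and 0.140 in WT livers. In bulk liver RNA, fewer cells of a type and less RNA per cell cannot be told apart.

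Psmb10 is also high in immune cells, so their markers are given beside it. The summed MHC class II and dendritic cell markers had a median of 71.6 FPKM (36.3 to 233.9) in L2d13 livers and 81.0 FPKM (44.4 to 155.2) in WT livers, and 0 of the 4 that could be tested were called by limma. Summed T and NK cell markers were between 1.63 and 11.4 FPKM in L2d13 livers and between 2.09 and 5.10 FPKM in WT livers, with Cd3e at a median of 0.245 FPKM in L2d13 livers and 0.135 FPKM in WT livers and 1 of the 9 high enough to test, which was not called. Summed B cell markers were between 1.42 and 16.5 FPKM in L2d13 livers and between 1.39 and 3.70 FPKM in WT livers, with 1 of the 5 tested and not called. The highest L2d13 values of the B cell and class II sums came from set 2 replicate 3, the same library that held the highest L2d13 value of Psmb10. The part of these cells in the difference was not tested.

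**Figure D4:**
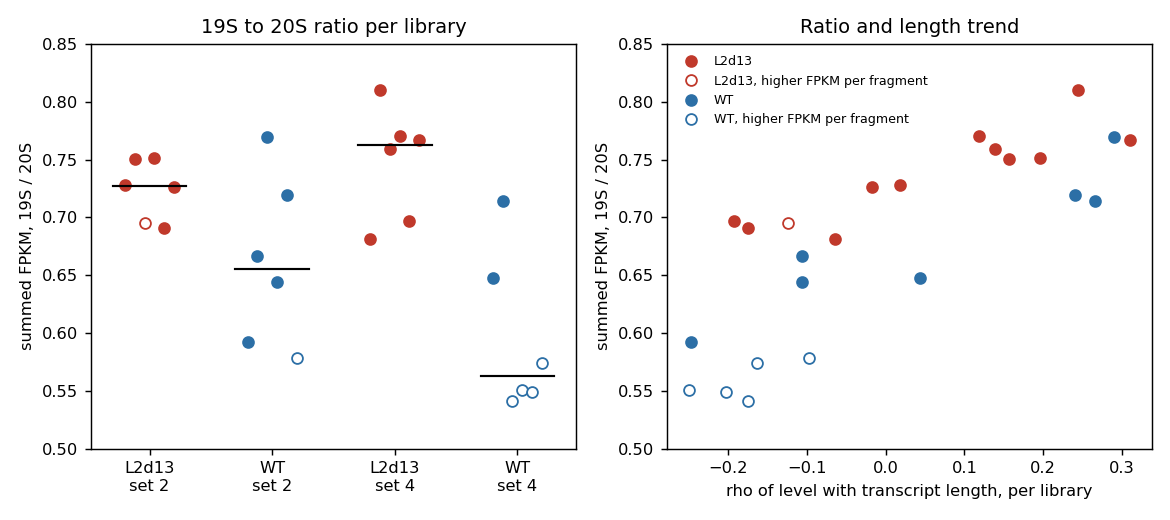
Summed FPKM of the regulatory particle (base and lid) divided by that of the core (alpha and constitutive beta) in each library. A line marks each group's median. The same ratio is set against the library's rank correlation of transcript length with each gene's deviation from its mean over the 24 libraries. L2d13 medians are 0.728 in set 2 and 0.763 in set 4, above the WT medians of 0.656 and 0.563, and low ratios stand beside low correlations.

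The proportion of regulatory particle to core was compared between the genotypes. Over both sets 16 of the 17 base and lid genes rose (median 0.42, range 0.19 to 0.74), beside 9 of the 14 alpha and constitutive beta genes (median 0.22, range -0.07 to 0.46) and 25.9% of all genes. Under median-of-ratios scaling without the 6 libraries the counts were 6 of 17 (median 0.20) and 2 of 14 (median 0.09). The ratio of their summed FPKM was 0.691, 0.728 and 0.751 in set 2 L2d13 livers as the lowest, median and highest, against 0.578, 0.656 and 0.769 in set 2 WT livers. In set 4 it was 0.681, 0.763 and 0.810 in L2d13 livers, against 0.542, 0.563 and 0.714 in WT livers. The groups overlapped in both sets, and the 5 lowest ratios were those of set 4 WT replicates 9 to 12 and set 2 WT replicate 6, all among the 6 libraries. Without the 6 libraries the ratio had a median of 0.750 (0.681 to 0.810) in 11 L2d13 livers and 0.667 (0.592 to 0.769) in 7 WT livers. The difference between the particles was not tested as a score over genes.

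Transcript length moved with this proportion. Length here is the median over all GENCODE M21 protein-coding transcripts of a gene, so short isoforms count as much as long ones. It need not be the length behind the FPKM, and it came to only 659 bases for Psmd2 and 716.5 for Psmd11. By this measure the tested regulatory genes had longer transcripts, with a median of 1526 bases, than the core genes, with a median of 975 bases. Within each library, each gene's deviation from its mean over the 24 libraries was rank-correlated with transcript length. The 10387 tested genes with a length were used. This correlation had a median of 0.068 (-0.193 to 0.311) in L2d13 livers and -0.107 (-0.25 to 0.29) in WT livers. By median, long transcripts were lower relative to short ones in WT libraries, but the ranges of the genotypes overlapped almost wholly. Across all genes tested the log2 difference rose weakly with length (Spearman's rho 0.11, across genes that are not independent), at 0.18 in set 4 and -0.0057 in set 2. Over both sets it was -0.36 across the 17 regulatory genes and 0.55 across the 14 core genes. With the length trend of each library removed, an alternative chosen after seeing the data, 18 of the 35 genes rose, against a background of 11.4% of genes, and their median was 0.20. With that and without the 6 libraries 10 rose, against 10.3%, and the median was 0.15. The part of transcript length in the ratio was not tested beyond these fits.

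**Figure D5:**
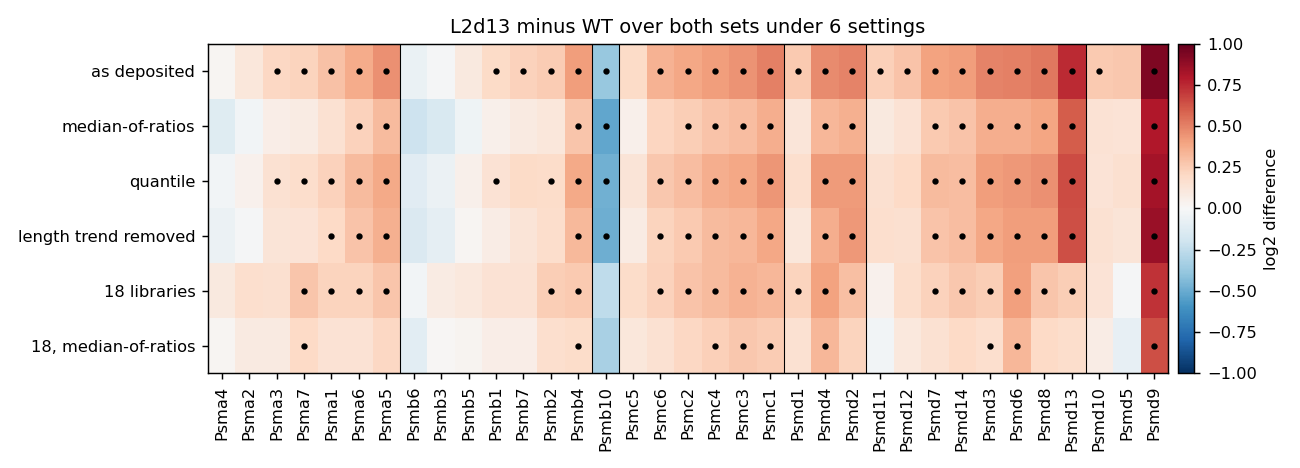
Log2 difference over both sets (colour) of the 35 genes under 6 settings of scaling, library choice and length correction, with a dot where the adjusted p is under 0.05. Psmb4, Psmc1, Psmc3, Psmc4, Psmd3, Psmd4, Psmd6 and Psmd9 keep a dot in every setting shown, while Psmb5, Psmb6 and Psmb3 have none in any.

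Of the 27 genes that rose, 7 were called under all 13 other settings tried: Psmb4 of the core, Psmc1, Psmc3, Psmc4 and Psmd4 of the base, Psmd6 of the lid and the chaperone Psmd9. Leaving out each of the 24 libraries in turn kept 25 of the 27 calls in all 24 fits. Psmd1 and Psmd10 were called in 7 of the 24. Psmb10 was called in 8 of the 13 settings and in 10 of the 24 fits without 1 library.

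Within set 2, 13 of the 35 genes rose and 0 fell, against 13.0% and 2.13% of all genes tested, and the median was 0.27 beside 0.16 for all genes. In 8 genes the 6 L2d13 libraries were all above the 6 WT libraries: Psma6, Psmb4, Psmc1, Psmc3, Psmd7, Psmd8, Psmd9 and Psmd13. Of all genes tested, 5.44% showed this. Without the 6 libraries, 17 of the 35 rose in set 2, against 18.2% of all genes, and their median was 0.27. With median-of-ratios scaling 2 of the 35 rose in set 2, against 372 of 10521 genes. The medians were then 0.09 for the proteasome genes and 0.008 for all genes.

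Within set 4, 19 of the 35 genes rose and 0 fell, against 10.3% and 2.97% of all genes tested, and the median was 0.38 beside 0.08. Here Psmc2, Psmc3, Psmc4, Psmc6, Psmd2, Psmd6, Psmd9 and Psmd12 did not overlap between the genotypes, a state that 4.86% of all genes showed with L2d13 higher. Of the regulatory genes 14 of 17 rose in set 4 and 7 of 17 in set 2, whereas 4 of the 14 core genes rose in each. In set 4 without the 6 libraries, which leaves 2 WT libraries, 1 gene (Psmc3) rose, the background fell to 2.12%, and the median of the proteasome genes was 0.16 beside -0.05 for all genes.

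Whether the genotype difference itself differed between the sets was tested directly. By limma, 0 of the 35 genes were called, against 0.152% of all genes, and 2 (Psmd12 and Psmc2) had an unadjusted p under 0.05. Psmd12, a lid subunit, came nearest. It had 35.8, 43.6 and 50.6 FPKM in set 2 L2d13 livers, against 37.95, 40.36 and 48.32 FPKM in set 2 WT livers. Its set 4 values were 42.44, 49.995 and 55.06 FPKM in L2d13 livers, against 29.90, 34.025 and 41.04 FPKM in WT livers. The groups overlapped in set 2 and did not in set 4, with differences of 0.07 and 0.50, and the difference between these was 0.43 ± 0.14 (SE) with an unadjusted p of 0.00473 and an adjusted p of 0.351. Psmd9 had 1.04 in set 2 and 0.83 in set 4, and Psmd13 had 0.63 in set 2 and 0.85 in set 4. The set 2 value of Psmd13, which was not called, was 0.32 without set 2 WT replicate 6.

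The sets were also compared within each genotype. In L2d13 livers Psmd9 alone was called for set 4 minus set 2, at -0.51 ± 0.15 (SE, adjusted p = 0.0432), against 5.51% of all genes called lower and 0.551% higher. This call was lost with no filter on low values, with quantile normalization, with median-of-ratios scaling and with the length trend removed. Its ranges were 23.9 to 31.9 FPKM in set 4 and 31.8 to 45.2 FPKM in set 2, which touch at set 4 L2d13 replicate 9. The median over the 35 genes was -0.14, beside -0.15 for all genes. In WT livers no proteasome gene was called, against 0.190% of all genes in either direction, and the medians were -0.21 and -0.08. Over the whole group of genes, the share of the FPKM sum held by proteasome genes had a median of 0.468% in set 2 L2d13 livers and 0.349% in set 2 WT livers. In set 4 it was 0.407% (0.336% to 0.430%) in L2d13 livers and 0.281% (0.2435% to 0.371%) in WT livers, so the ranges overlapped. Without the 6 libraries the medians were 0.464% and 0.356% in set 2. In set 4 they were 0.407% in L2d13 livers and 0.361% in the 2 WT livers left.

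Of the proteasome genes that the naming rule leaves out, Adrm1, a ubiquitin receptor of the base, rose by 0.28 ± 0.10 (SE, adjusted p = 0.0323). Sem1, a small lid subunit, had a difference of -0.32 (adjusted p = 0.112). The inducible Psmb8 had a median of 10.495 FPKM in L2d13 livers and 14.585 FPKM in WT livers and a difference of -0.29 (adjusted p = 0.0581), and Psmb9 had 11.3 FPKM in L2d13 livers and 11.4 FPKM in WT livers (difference 0.01). The chaperones of core assembly had 1 of 5 called, Psmg2 (0.25, adjusted p = 0.0277), and a median of 0.12. Of all genes tested 25.9% were called higher and 4.86% lower, with a median of 0.12, so these chaperones were near the background. Among activators and inhibitors of the core, Psmf1, an inhibitor, rose by 0.27 (adjusted p = 0.00411) and Psme1, a subunit of the interferon-inducible activator, had -0.34 (adjusted p = 0.0314), with the other 3 not called.

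Factors that bring substrates to the proteasome or act on it are read against the 25.9% of all genes called higher and their median of 0.12. Of 14 proteasome-bound enzymes and shuttle factors 8 rose, with a median of 0.31, among them Rad23b (0.31, adjusted p = 0.00408), a shuttle for ubiquitinated proteins, Ecpas (0.33, adjusted p = 0.00617), a proteasome adaptor, and Ubqln2 (0.48, adjusted p = 0.00708), another shuttle. Of 16 genes of the NRF1 pathway 6 rose, with a median of 0.20. They included Mafk (0.39, adjusted p = 0.00536), which dimerises with NRF1, and the segregase Vcp (0.48, adjusted p = 0.00753) with its cofactor Nploc4 (0.54, adjusted p = 0.00746), which draw it from the membrane. Nfe2l1 itself had a median of 31.3 FPKM in L2d13 livers and 31.1 FPKM in WT livers and a difference of -0.07 (adjusted p = 0.573). Of 15 ubiquitin genes and conjugating or activating enzymes 6 rose, with a median of 0.16, led by Ube2d3 (0.30, adjusted p = 0.00215) and Ube2d2a (0.27, adjusted p = 0.00948), both conjugating enzymes, and Rps27a (0.34, adjusted p = 0.0154), a ubiquitin fusion gene.

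Of 15 genes of antigen processing by MHC class I 4 rose and 3 were called lower, with a median of 0.06. The share that rose is near the 25.9% of all genes, and 4.86% of all genes were called lower. Tap1, a subunit of the peptide transporter, rose by 0.61 (adjusted p = 2.1e-05). The 3 lower were Psmb10, Psme1 and B2m (-0.35, adjusted p = 0.0444), the light chain of class I molecules.

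Markers of other liver cells are set beside the 25.9% of all genes called higher. Of 6 sinusoidal endothelial markers 5 rose over both sets, 3 in set 2 alone and 0 by limma in set 4 alone, and their summed FPKM had a median of 78.6 (32.0 to 169.9) in L2d13 livers and 48.6 (20.9 to 90.2) in WT livers. Of 10 Kupffer cell markers 3 rose over both sets, near that share, and 0 by limma in either set alone, with a median sum of 224.7 FPKM (77.8 to 367.6) in L2d13 livers and 152.2 FPKM (48.9 to 267.1) in WT livers. Of 6 stellate cell markers 2 rose over both sets, 4 in set 2 alone (beside 13.0% of all genes) and 0 by limma in set 4 alone. Their median sums were 112.4 FPKM in L2d13 livers and 82.5 FPKM in WT livers. Of 10 hepatocyte markers 1 rose (Cps1, 1.01) and 1 fell (Ttr, -0.69), with median sums of 48258 FPKM in L2d13 livers and 55006 FPKM in WT livers. Of the 5 erythroid markers 1, Alas2, fell by 0.35 on the log2 scale (adjusted p = 0.0153). The 3 neutrophil and 3 cholangiocyte markers that could be tested were not called over both sets. Their median sums were 7.82 and 19.3 FPKM in L2d13 livers and 7.85 and 26.5 FPKM in WT livers. In set 4 alone 1 of each was called lower by limma, beside 2.97% of all genes. The set 4 median sums were 7.475 and 19.275 FPKM in L2d13 livers and 12.08 and 27.67 FPKM in WT livers. The part of these cells in the proteasome differences was not tested.

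Pairs of proteasome genes were on median positively correlated between libraries of the same group, with pairs from -0.784 to 0.945. All 24 libraries were used, and the correlations were not computed without the 6 libraries, whose part in them was not tested. The median pairwise Pearson correlation of their deviations from the group means was 0.44 over 595 pairs, beside 0.15 for all genes tested. All genes of a library share its depth and scaling. With median-of-ratios scaling the median correlation of the proteasome genes was 0.34, beside a value near 0 for all genes. As deposited, the lid genes had a median of 0.64 among themselves, the ATPases 0.57 and the 3 other base subunits -0.02. Psma5 (0.68), Psmd5 (0.65) and Psmc3 (0.62) had the highest median correlation with the other proteasome genes, and Psmb10 (-0.19), Psma4 (-0.12) and Psmb3 (-0.11) had the lowest.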

How the data were processed

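Total liver RNA, in 24 libraries, was sequenced on a BGISEQ-500, per the labels' protocols. The authors deposited FPKM per gene, with 2 decimals. HISAT, Bowtie2, RSEM and the build GRCm38.p5 are listed, with no tool version, per the submitters' processing notes; filters and strand use are not given in the sources used here. Genes were matched by Entrez ID to RefSeq symbols (GRCm38.p6, a patch of the same build). Depth is unknown, so no intervals from counts are given.

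Log2(FPKM + 1) was fitted with limma 3.58.1 (R 4.3.3, statmod 1.5.0), with variances following the mean, on the 10532 genes that reached an FPKM of 1 in 6 or more libraries. A fit with set and genotype as terms gave the difference over both sets, and a fit of the 4 group means gave the other contrasts. Fold changes are on this scale and understate the change of low genes. P-values were adjusted by Benjamini-Hochberg over all genes tested and called under 0.05. The scripts were tested on simulated data. Relative FPKM per fragment came from the steps between low values of 220 genes. Figures used Python 3.11.15 and matplotlib 3.10.9.

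Genes given in full were the catalytic subunits, the 4 largest rises and falls among those called, and those called between sets; of other lists, the 3 called with the smallest p. Other scalings, filters, pseudocounts, weights, library choices, a replicate block and a length correction were tried. The members and lists were chosen with earlier results of these data known. Protein sequences were not used here.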

Additional observations from a re-analysis of the deposited data

Results flagged for a closer look

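In 5 of the 40 groups of 6 libraries examined, 1 library stood apart by Dixon's test, where chance gives about 1 in 20. In set 2 L2d13, replicate 3 had 176.53 FPKM of Psmb6, with 106.6 FPKM next, and 27.55 FPKM of Psmb10, with 17.92 FPKM next. The FPKM of all proteasome genes summed to 3003.2 in that library, with 2617.33 next. Replicate 6 of set 2 WT had 8.32 FPKM of Psmd13, with 30.55 FPKM next. Both libraries are among the 6 with more FPKM per fragment. Replicate 9 of set 4 L2d13, which is not among them, had 31.94 FPKM of Psmd9, with 26.88 FPKM next.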

How the results depend on the processing

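Over both sets, 27 genes rose in the fit reported. The count was 16 with median-of-ratios scaling, 9 with that scaling without the 6 libraries and 10 with the length trend removed without them; 18 to 28 rose under the others, and 25 to 28 without each library in turn. Psmb10 as the 1 call lower became 0 with no filter, without the 6 libraries (also under median-of-ratios scaling), with the replicate block and with no term for set, and 0 to 1 without each library. In set 2 the 13 rises became 2 with median-of-ratios scaling (also without the 6 libraries) or the length trend removed. They became 4 with the length trend removed without the 6 libraries and 5 with quantile normalization or the replicate block. With arrayWeights 23 rose and 1 was called lower in set 2, against 3174 and 601 of 10532 genes. Leaving out each library gave 8 to 15 rises, with 8 without set 2 L2d13 replicate 2 or set 2 WT replicate 4. In set 4 the 19 rises became 15 with median-of-ratios scaling and 16 with the length trend removed. Without the 6 libraries they became 1. They became 5 without the 6 libraries and with median-of-ratios scaling, and 2 without them and with the length trend removed. Leaving out each library in turn gave 14 to 21 rises in set 4. Calls lower in set 4 became 1 with median-of-ratios scaling, quantile normalization or the length trend removed, 2 with arrayWeights, and 0 to 1 without each library. The difference between sets had 1 call higher with arrayWeights. For set 4 minus set 2 in L2d13 the 1 call lower became 6 with arrayWeights, 3 without the 6 libraries, 0 with no filter, and 0 with quantile normalization, median-of-ratios scaling or the length trend removed, the last 2 also without the 6 libraries; it was 0 to 1 without each library. In WT arrayWeights gave 16 lower. Co-variation fell to 0.335 with median-of-ratios scaling.

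Signs turned as follows. With median-of-ratios scaling Psmb5 was -0.045 over both sets, -0.020 in set 2 and -0.070 in set 4, Psma2 -0.027, Psma4 -0.12 and set 2 Psmb6 -0.13. With quantile normalization Psma4 was -0.030 and set 2 Psmb6 -0.055. With arrayWeights Psma4 was -0.031, set 2 Psmb6 -0.030 and set 4 Psmb5 -0.017. With the length trend removed Psma2 was -0.015, Psma4 -0.060 and set 2 Psmb6 -0.11. Without the 6 libraries Psmb3 was 0.085 and Psmd5 -0.013. With median-of-ratios scaling as well, Psmb3 was 0.0083, Psmd5 -0.085, Psmd11 -0.031, set 2 Psmb5 -0.030 and set 2 Psmb6 -0.13; with the length trend removed instead, Psmb3 was 0.017, Psmd5 -0.087, Psmd11 -0.021, set 2 Psmb5 -0.00218 and set 2 Psmb6 -0.11. Without each library in turn, Psma4 ranged from -0.017 to 0.081, Psmb3 from -0.054 to 0.060, set 2 Psmb6 from -0.092 to 0.16 and set 4 Psmb5 from -0.027 to 0.094. The cause of these changes was not tested.

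Replicate numbers did not pair the libraries: over 12 pairs the correlation of deviations ran from -0.60 to 0.26, with 4 over 0.1 and 1 best with its own number. With the replicate block 22 genes rose over both sets and 13 in set 4; contrasts between sets cannot be estimated with it. The motif window without the 50 bases after the start gave 17.2% against 14.0% for TGACNNNGC and 31.0% against 16.4% for CCGGAAG among genes tested.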
